A study of Mus musculus with 8 samples.

Results

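Transcripts of 9 genes of the endothelial surface and lumen were measured in endothelial-reporter cells of the developing mouse brain and lung. They comprise the lectin receptors Clec14a and Cd93 with their shared matrix ligand Mmrn2, the sialomucins Emcn, Cd34 and Podxl, and the vessel-forming genes Egfl7, Ecscr and Rasip1. The genes were chosen by name, not by a threshold on their values, but with earlier results of these data known. Where several probe sets were annotated to a gene alone, the one whose 8-array mean was highest stood for it. All 9 genes were found, among 18193 genes measured. Cells positive for green fluorescent protein (GFP) were sorted from the cortex, cleared of meninges and choroid plexus, and from the lungs of E13.5 embryos. All embryos came from homozygous Tie2-GFP mice, so both groups carried the transgene, in which the Tie2 (Tek) promoter drives GFP. That promoter is known to be active in endothelium and in some blood-forming cells. Material of 10 to 13 embryos of a litter was pooled for each array. There were 4 cortex arrays and 4 lung arrays, numbered 72, 22, 19 and 18 within each tissue. Values per array are given in that order. They are log2 expression values, on which 1 unit is a 2-fold difference.

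CLEC14A and CD93, of the group XIV C-type lectins, are endothelial receptors with a lectin-like domain, a mucin-like stalk and a single membrane span. Both bind multimerin 2, a protein of the vessel's matrix, and both take part in sprouting. Sialomucins are heavily glycosylated, negatively charged proteins that line the apical face of endothelial cells, where their charge is known to push opposed membranes apart while a lumen opens. Rasip1 acts inside the cell as an effector of the GTPase Rap1 and is required for continuous lumens in mouse embryos.

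The titles and tissue labels set the groups, while the description of the 4 samples numbered 19 and 18 names the other tissue. The mean of 14 neural markers lay at 11.15 to 11.70 on the arrays titled cortex and 5.84 to 6.34 on those titled lung, and all 14 were higher in cortex, so the values went with the titles. The cortex samples thus held neural as well as endothelial transcripts. The mean of 22 endothelial comparison genes, such as Cdh5, Pecam1, Tie1 and Kdr and none of them among the 9, lay at 9.24 to 11.12 in cortex and 10.96 to 11.62 in lung. On the cortex arrays this mean was 9.69, 11.04, 11.12 and 9.24, so that arrays 22 and 19 stood higher and 72 and 18 lower. The lung epithelium list of 7 genes had means of 6.36 to 7.65 in cortex and 6.93 to 8.07 in lung. Its genes went both ways, with 1 higher in cortex and 2 higher in lung (limma adjusted p under 0.05). Sox9 lay at 10.68 in cortex and 7.80 in lung, Krt18 at 6.27 and 10.21, and Krt8 at 5.18 and 6.36. The means of 6 mesothelial markers were 4.84 to 4.95 in cortex and 5.42 to 6.70 in lung. The lowest value of any probe set was 2.82, so none reads 0 on this scale, and no detection call comes with the values.

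The start regions of Clec14a, Emcn and Rasip1 are printed. As described below, these 3 genes lay lower in cortex relative to the mean of the endothelial comparison genes. Each window runs from 250 bases before to 50 after the RefSeq gene start, in GRCm38.p6. Capitals mark AGGAAG or its reverse complement CTTCCT, a sequence typical of sites for ETS factors, which are regulators of endothelial genes.
Clec14a (chr12:58269209-58269508, minus strand): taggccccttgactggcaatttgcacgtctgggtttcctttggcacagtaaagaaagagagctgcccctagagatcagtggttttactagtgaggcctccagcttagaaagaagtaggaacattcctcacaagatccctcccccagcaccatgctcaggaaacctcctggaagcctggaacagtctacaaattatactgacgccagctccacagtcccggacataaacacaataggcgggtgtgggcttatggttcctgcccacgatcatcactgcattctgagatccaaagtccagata
Emcn (chr3:137340828-137341127, plus strand): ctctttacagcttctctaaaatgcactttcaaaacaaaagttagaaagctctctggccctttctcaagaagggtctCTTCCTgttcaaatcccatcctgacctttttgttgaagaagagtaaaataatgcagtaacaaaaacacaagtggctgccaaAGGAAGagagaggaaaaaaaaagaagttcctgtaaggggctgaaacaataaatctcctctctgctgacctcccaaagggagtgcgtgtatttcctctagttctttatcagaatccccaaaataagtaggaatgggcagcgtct
Rasip1 (chr7:45627287-45627586, plus strand): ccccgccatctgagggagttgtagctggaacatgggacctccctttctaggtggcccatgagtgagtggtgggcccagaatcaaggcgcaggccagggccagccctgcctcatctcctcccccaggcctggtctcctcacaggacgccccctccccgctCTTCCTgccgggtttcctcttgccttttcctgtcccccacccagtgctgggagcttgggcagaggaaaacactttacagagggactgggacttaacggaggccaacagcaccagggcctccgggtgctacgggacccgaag
The letters occur 0 times in the Clec14a window, 2 times in that of Emcn and 1 time in that of Rasip1. Only this exact sequence was counted, so a count of 0 does not mean that other ETS-type sites are absent. They also occur 1 time in the window of Cd34 and in 2 of the 3 start windows of Egfl7. On both strands they were present in 35.4% of the 32851 windows of this length, so such a match is common. AACAAT, a SOX-type sequence, occurred 1 time, in Emcn, against 10.7% of windows, and neither TGTTTAC of the forkhead type (3.65%) nor AGATAA of the GATA type (11.2%) was found in the 7 windows of the 5 genes matched. No 2 of these motifs overlapped there.

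Clec14a, Emcn, Rasip1 and Egfl7, 4 of the 9 genes, fell in cortex relative to lung, none rose and 5 were not called, at an adjusted p under 0.05 across all genes (limma with Benjamini-Hochberg adjustment). The background of such calls was 7.71% of genes lower in cortex and 10.4% higher. All 9 means were lower in cortex, as were 58.5% of all genes, with a median difference of -1.09 log2 units against -0.087 over all genes. The median of the endothelial comparison genes was -1.09, with 4 of 22 lower in cortex (Calcrl, Tal1, Icam2 and Tie1) and 0 higher. Setting the arrays to equal endothelial comparison means moved every difference by 1.12 log2 units and the median of all genes to 1.03. On that scale Cd93, Mmrn2, Cd34, Podxl and Ecscr lay above 0 (0.024 to 0.52) yet below that median, and none of the 5 was called. In bulk samples, fewer cells of a type and less RNA per cell cannot be told apart. For 6 genes every cortex array lay below every lung array, which holds for 12.0% of all genes (12.5% lay above), and for Cd93, Mmrn2 and Cd34 the tissues overlapped. The number of genes called depended on single arrays, with 2 without cortex 72, lung 22, lung 19 or lung 18 and 6 without cortex 19. Calls of Clec14a and Emcn remained without any 1 array.

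**Figure D1:**
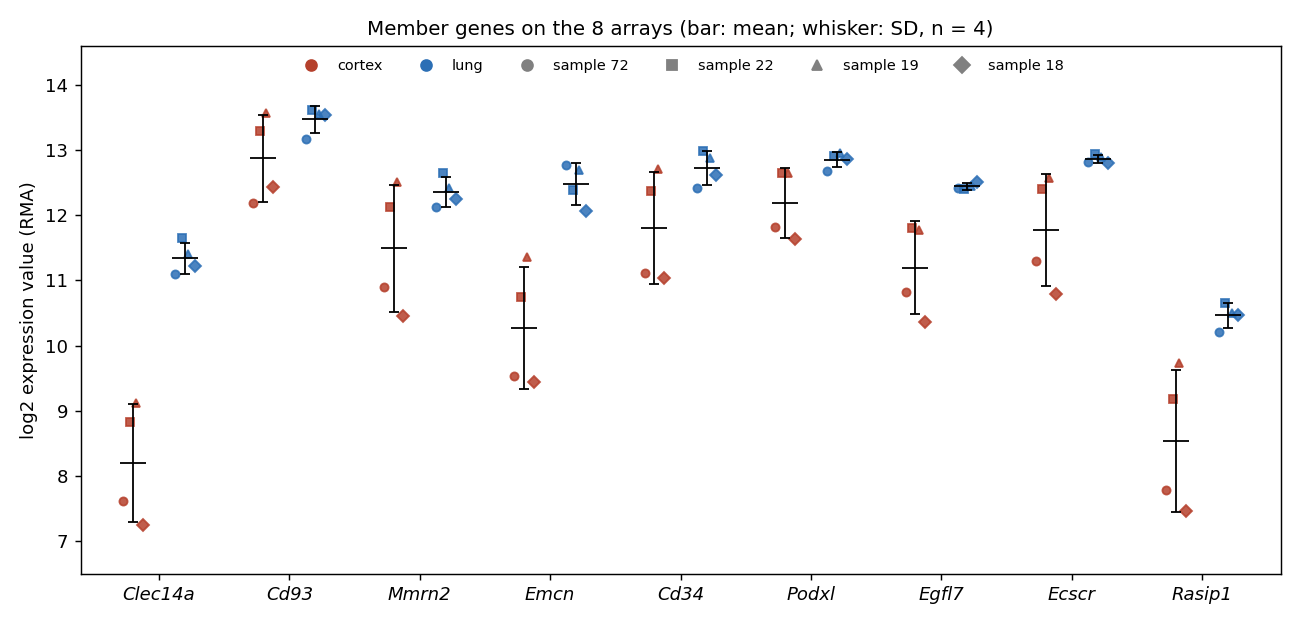
Log2 expression values (vertical axis) of the 9 genes on each array, cortex left of lung for each gene, with the mean and SD of 4 arrays; the marker gives the sample number. The cortex arrays span 1.01 to 2.28 log2 units per gene and the lung arrays 0.11 to 0.72, and Clec14a shows the widest gap between tissues.

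**Figure D2:**
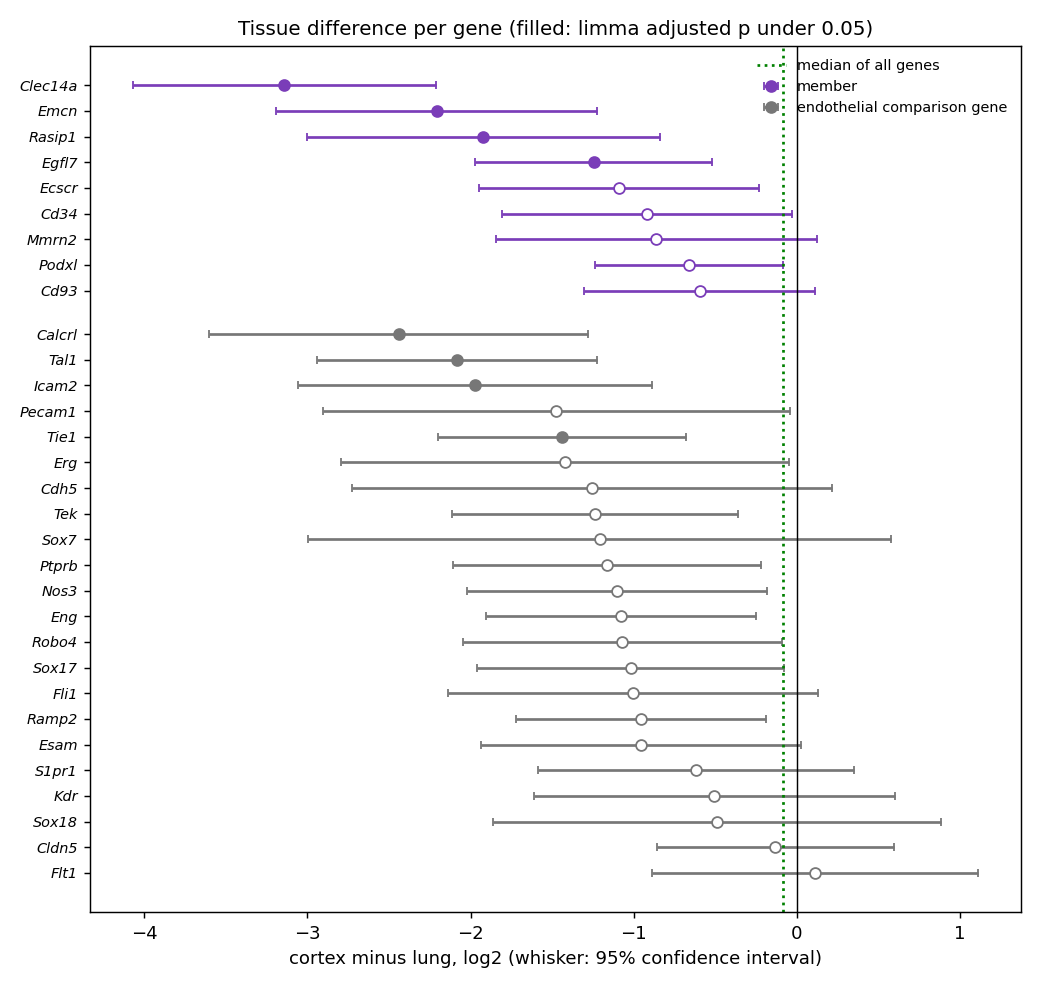
Cortex minus lung difference in log2 units with its 95% confidence interval for the 9 genes (purple) and the 22 endothelial comparison genes (grey), filled where the limma adjusted p is under 0.05. Clec14a lies farthest to the left at -3.14, and the dotted line marks the median of all genes.

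Among the lectins and their ligand, Clec14a showed the largest difference of the 9 genes. Clec14a (chr12:58264720-58269258, GRCm38.p6), whose start region is printed above, read 7.61, 8.82, 9.12 and 7.25 on the cortex arrays, against 11.10, 11.65, 11.40 and 11.22 on the lung arrays. The highest cortex array lay 1.98 log2 units below the lowest lung array. The means were 8.20 ± 0.91 in cortex and 11.34 ± 0.24 in lung (SD, n = 4 each), a difference of -3.14 log2 units (SE 0.41, limma adjusted p = 0.000978), with a 95% confidence interval of -4.07 to -2.21. This was 8.82-fold lower in cortex, and 0.478% of genes lay further towards lung. The second probe set of the gene gave -3.28 log2 units with no overlap between tissues. Leaving out 1 array at a time gave -3.45 to -2.82 log2 units.

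Cd93 (chr2:148436651-148443535), the related lectin, which myeloid and progenitor cells also carry, read 12.20, 13.29, 13.58 and 12.43 in cortex, against 13.17, 13.62, 13.56 and 13.54 in lung. Its tissues overlapped, since cortex arrays 22 and 19 lay within the lung range and 72 and 18 below it. The difference was -0.60 log2 units (SE 0.31, limma adjusted p = 0.232), the smallest of the 9, with an interval of -1.30 to 0.11. Its other 4 probe sets gave -0.28 to -1.21, and 2 of them lay at 3.47 to 6.77 on the arrays, near the lower end of the scale. None of the 5 was called. Beside Cd93, 13 haematopoietic markers had means of 6.69 to 7.85 in cortex and 6.27 to 7.01 in lung, with 4 higher in cortex (Csf1r and Cx3cr1 of macrophages, the embryonic globin Hba-x and the progenitor factor Myb) and 0 higher in lung. On cortex 18, Csf1r (6.89) and Cx3cr1 (5.73) lay within their lung ranges, while Hba-x and Myb did not overlap between tissues. The part of macrophages and other blood-forming cells in the value of Cd93 was not tested.

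Mmrn2 (chr14:34375504-34404287), the matrix ligand, read 10.90, 12.13, 12.51 and 10.46 in cortex, against 12.13, 12.65, 12.42 and 12.25 in lung. The tissues overlapped and the gene was not called, with a difference of -0.86 log2 units (SE 0.43, limma adjusted p = 0.215). Its 4 probe sets lay between -0.81 and -1.01, so they gave nearly the same difference.

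The receptors were also set against their ligand within each array. These pairs were chosen after the values were seen and are given as a description, with no test. Clec14a minus Mmrn2 was -3.28, -3.31, -3.39 and -3.21 in cortex, against -1.03, -1.0, -1.02 and -1.02 in lung. The spread within a tissue was small beside the gap, with -3.30 ± 0.072 in cortex and -1.02 ± 0.013 in lung (SD, n = 4 each). The ratio was thus 4.85-fold lower in cortex. Cd93 minus Mmrn2 was 1.30, 1.17, 1.07 and 1.97 in cortex, against 1.04, 0.97, 1.14 and 1.29 in lung, with overlap and a difference of 0.27. Clec14a minus Cd93 differed by -2.54 log2 units, with -4.67 ± 0.35 in cortex and -2.13 ± 0.14 in lung. Over the 8 pairings of Clec14a and Mmrn2 probe sets, the cortex arrays lay below the lung arrays in 8, by means of -2.13 to -2.46 log2 units.

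**Figure D3:**
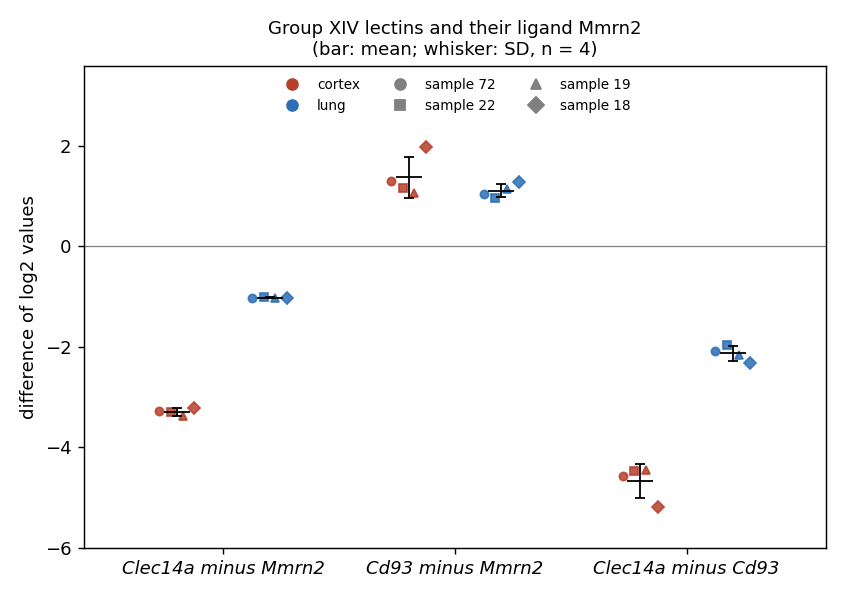
Differences of log2 values within each array (vertical axis) for 3 pairs of genes, cortex left of lung, with the mean and SD of 4 arrays. Clec14a minus Mmrn2 forms tight groups at -3.30 in cortex and at -1.02 in lung, while Cd93 minus Mmrn2 overlaps.

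Of the 3 sialomucins, Emcn fell in cortex and Cd34 and Podxl were not called. Emcn (chr3:137341062-137431069) encodes endomucin, known from veins and capillaries, where it keeps leukocytes from adhering. It read 9.53, 10.75, 11.36 and 9.44 in cortex, against 12.78, 12.39, 12.69 and 12.06 in lung. No cortex array reached the lung range, and the gap was 0.70 log2 units. The mean was 10.27 ± 0.94 in cortex and 12.48 ± 0.33 in lung (SD, n = 4 each), a difference of -2.21 log2 units (SE 0.43, limma adjusted p = 0.00829), or 4.62-fold lower in cortex. Its call was lost when cortex 72 and lung 72 were both left out (-1.86, adjusted p = 0.0592).

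Cd34 (chr1:194938821-194961292), a marker of endothelium and of blood-forming progenitors, read 11.11, 12.38, 12.70 and 11.03 in cortex, against 12.43, 12.99, 12.88 and 12.61 in lung. Cortex array 19 lay within the lung range and the other 3 below it, so the tissues overlapped, with a difference of -0.92 log2 units (SE 0.39, limma adjusted p = 0.146). Leaving out cortex 19 let it pass (-1.22, adjusted p = 0.0491). Podxl (chr6:31519493-31563937) encodes podocalyxin, the CD34 relative that coats podocytes, mesothelium and the luminal face of vessels. It read 11.82, 12.65, 12.65 and 11.64 in cortex, against 12.69, 12.90, 12.95 and 12.87 in lung. The tissues were apart by only 0.039 log2 units, and Podxl was not called, with a difference of -0.66 log2 units (SE 0.25, limma adjusted p = 0.109). Its other probe set, at 4.41 to 5.86 on all arrays, gave -0.53 with overlap. Of the 6 mesothelial markers, 3 were higher in lung and 0 in cortex, and their part in the value of Podxl was not tested.

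Rasip1 and Egfl7 fell in cortex among the vessel-forming genes, and Ecscr did not pass. Rasip1 (chr7:45627537-45639092) read 7.79, 9.17, 9.74 and 7.46 in cortex, against 10.21, 10.66, 10.51 and 10.47 in lung, with no overlap. It was 3.79-fold lower in cortex, a difference of -1.92 log2 units (SE 0.47, limma adjusted p = 0.0241). The cortex arrays of Rasip1 spanned 2.28 log2 units, the widest range of the 9 genes, and the lung arrays 0.45. The call ended without cortex 72 (-1.67 log2 units, adjusted p = 0.0674), lung 22 (-1.86, 0.0621), lung 19 (-1.91, 0.0604) or lung 18 (-1.92, 0.0529).

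Egfl7 (chr2:26581083-26592682) encodes a secreted protein of the vessel matrix and holds the endothelial microRNA miR-126 in an intron. The mature microRNA from RefSeq (chr2:26591402-26591423, plus strand, GRCm38.p6), with its seed at bases 2 to 8 in capitals, is shown to place it within the gene and was not measured here.
mmu-miR-126a-3p: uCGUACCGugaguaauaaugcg
Egfl7 read 10.82, 11.81, 11.78 and 10.37 in cortex, against 12.42, 12.40, 12.45 and 12.50 in lung. The lung arrays were nearly equal, spanning 0.11 log2 units, the narrowest range of the 9 genes, and every cortex array lay below them. The gene was 2.37-fold lower in cortex, a difference of -1.25 log2 units (SE 0.32, limma adjusted p = 0.0280). All 4 of its probe sets had no overlap between tissues, with differences of -1.16 to -1.43, and 2 of them passed over all probe sets (adjusted p = 0.0391 and 0.0335). Its call ended without cortex 72 (-1.12 log2 units, adjusted p = 0.0795) and without any 1 lung array (-1.23 to -1.26 log2 units, adjusted p = 0.0535 to 0.0669).

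Ecscr (chr18:35713086-35722413) encodes a transmembrane protein of endothelial cells that acts in their migration. It read 11.31, 12.40, 12.58 and 10.79 in cortex, against 12.81, 12.93, 12.89 and 12.81 in lung. The tissues did not overlap, yet the gene was not called, with a difference of -1.09 log2 units (SE 0.38, limma adjusted p = 0.0822). Leaving out cortex 19 let Ecscr pass (-1.36, adjusted p = 0.0346), as did median centring of the arrays (-1.30, adjusted p = 0.0367). That centring moved the median of all genes by -0.21 log2 units.

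Arrays 19 and 22 were the 2 highest cortex arrays for 9 of 9 genes. Array 19 was the highest for 8, with Egfl7 highest on array 22, and array 18 was the lowest for 8, with Cd93 lowest on array 72. The endothelial comparison mean had the same 2 highest arrays. When that mean was subtracted on each array, the SD over cortex arrays became smaller for 9 of 9 genes, with 0.10 to 0.42 in place of 0.53 to 1.09. Over lung arrays it became smaller for 1 of 9, Emcn, with 0.16 to 0.37 in place of 0.047 to 0.33. Lung array 18, whose endothelial comparison mean of 10.96 was the lowest in lung, was not the lowest lung array for Clec14a, Cd93, Mmrn2, Cd34, Podxl, Egfl7 or Rasip1.

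Relative to the endothelial comparison genes, Clec14a, Emcn and Rasip1 were lower in cortex and the other 6 genes overlapped between tissues. Clec14a minus this mean was -2.08, -2.21, -2.0 and -1.99 in cortex, against -0.37, 0.16, -0.22 and 0.26 in lung. In cortex it was nearly constant, at -2.07 ± 0.10, and the difference of -2.03 log2 units was a 4.07-fold lower ratio. Emcn gave -0.16, -0.29, 0.24 and 0.20 in cortex, against 1.31, 0.90, 1.07 and 1.10 in lung, a difference of -1.09. Rasip1 gave -1.90, -1.86, -1.38 and -1.77 in cortex, against -1.26, -0.83, -1.12 and -0.49 in lung, a difference of -0.81. Each of the 3 had a two-sided exact permutation p of 0.0286, not adjusted for the 9 tests. This is the smallest that 70 splits of unpaired arrays allow. For all genes treated the same way, 1.25% had every cortex array below every lung array and 23.8% had every cortex array above. The endothelial comparison genes themselves differed by -1.32 (Calcrl) to 1.23 (Flt1) on this scale. Emcn and Rasip1 lay within that range and Clec14a below it.

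For the other 6 genes the differences from the endothelial comparison mean ran from -0.13 for Egfl7 to 0.52 for Cd93, with exact permutation p-values of 0.114 to 0.914. Egfl7, called on the deposited values, was thus among those that overlapped here. With the mean of all probe sets of each gene in place of the brightest, Cd93 gave 0.33 with an unadjusted exact permutation p of 0.0286. In a limma fit over all genes after each array was shifted to the same endothelial comparison mean, Clec14a alone of the 9 was called (-2.03 log2 units, interval -3.19 to -0.87, adjusted p = 0.00563). That scaling moved the median of all genes to 1.03 log2 units in favour of cortex, 0.808% of genes were called lower and 20.9% higher, and limma gave every gene the same SE of 0.59. Emcn (-1.09, adjusted p = 0.145) and Rasip1 (-0.81, adjusted p = 0.235) did not pass in it. The exact p of Rasip1 became 0.0571 without cortex 72, cortex 22, lung 22 or lung 18 (differences of -0.66 to -0.77 log2 units).

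**Figure D4:**
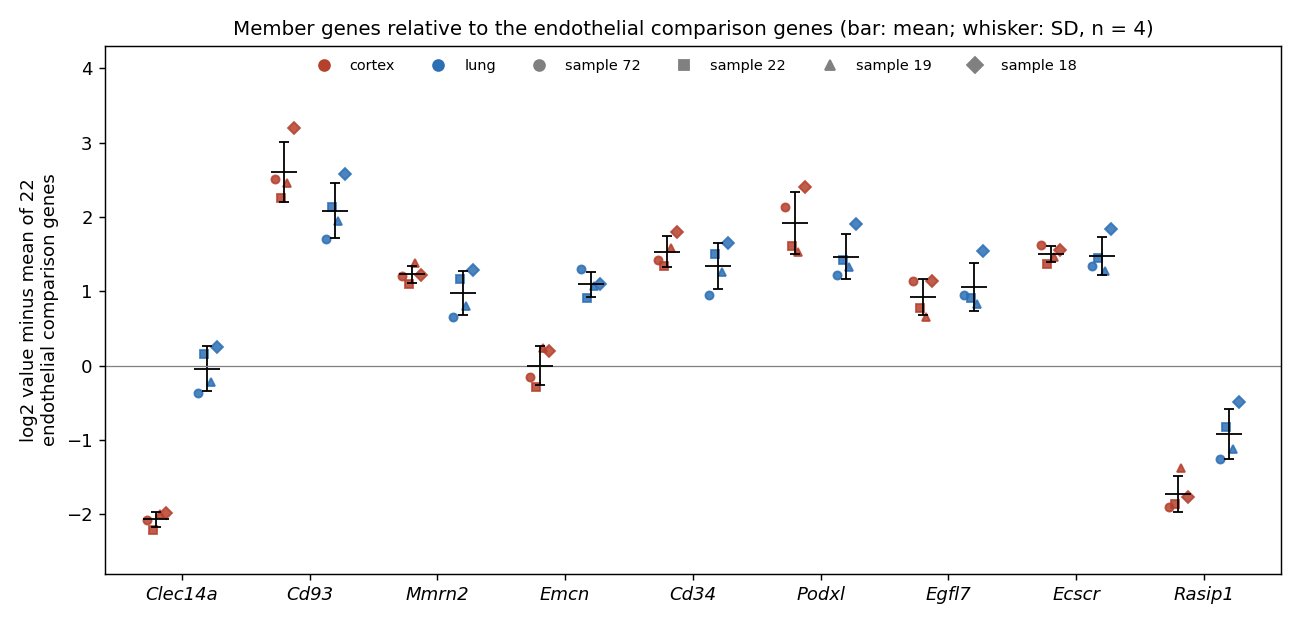
Log2 value of each gene minus the mean of 22 endothelial comparison genes on the same array (vertical axis), cortex left of lung, with the mean and SD of 4 arrays. Clec14a, Emcn and Rasip1 lie lower on every cortex array than on any lung array, and the other 6 genes overlap.

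Set against the mean of the other 8 genes on the same array, 3 genes lay lower on every cortex array, 5 lay higher and Egfl7 overlapped. Of all genes set against the mean of the 9 (of the other 8 for each of the 9), 0.885% lay below on every cortex array and 51.0% above, so lying higher was common on this scale. Clec14a stood at -3.07, -3.00, -2.99 and -3.21 in cortex, against -1.23, -0.92, -1.14 and -1.17 in lung, a difference of -1.95 log2 units. Emcn differed by -0.90 and Rasip1 by -0.58. The higher ones were Cd93 (0.91), Podxl (0.83), Mmrn2 (0.61), Cd34 (0.54) and Ecscr (0.35), each measured against a mean that holds the low values of Clec14a. With the median of the other 8 in its place, Mmrn2 (0.32, exact p = 0.0857), Cd34 (0.24, exact p = 0.171) and Ecscr (0.034, exact p = 0.286) no longer passed. Each of the 8 genes that did not overlap had an exact permutation p of 0.0286, unadjusted, and Egfl7 had a difference of 0.18 (exact p = 0.200). That p became 0.0571 for Emcn without cortex 72, 22 or 18 (-0.85 to -0.90 log2 units), for Podxl and Rasip1 without any 1 lung array (0.80 to 0.87 and -0.55 to -0.62) and for Ecscr without lung 22, 19 or 18 (0.33 to 0.36).

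For each of the 9 genes, the 2 nearest in pattern of 18184 other genes were taken. Likeness was the root mean square difference over the 8 arrays, in log2 units, after each gene was centred on its own mean. Genes picked in this way have a similar tissue difference by the choice itself. For Clec14a these were Rnf125 (0.186) and Gask1b (0.271), and their differences were -3.38 and -3.10 log2 units. Rnf125 is a ubiquitin ligase. For Emcn they were Ehd4 (0.178) and Cavin1 (0.209), of which Cavin1 encodes a coat protein of caveolae, and for Rasip1 they were Creb3l2 (0.0792) and Tagln2 (0.167). For Ecscr they were Eng (0.0605) and Fxyd5 (0.0883), of which Eng encodes endoglin, a TGF-beta co-receptor of endothelium and 1 of the comparison genes. Cd34 and Mmrn2 had the same 2 nearest genes, Arhgap29 (0.105) and Dusp6 (0.132) for Cd34 and Arhgap29 (0.130) and Dusp6 (0.155) for Mmrn2, and lay 0.121 from each other. Arhgap29 encodes a GTPase-activating protein that works with Rasip1. Cd93 was nearest to Vcl (0.108) and Tspan18 (0.116), Podxl to Mrtfb (0.0922) and D930048N14Rik (0.105) and Egfl7 to Kif1c (0.0570) and Scarf1 (0.107). The nearest of the 9 to Clec14a was Emcn at 0.546, and 52 other genes lay closer. This was not particular to Clec14a. The same count was 43 for Rasip1, 32 for Emcn, 25 for Podxl, 14 for Ecscr, 12 for Egfl7, 5 for Cd93, 1 for Cd34 and 0 for Mmrn2.

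Known partners and relatives of the 9 genes were followed in 4 lists, 59 genes in all. Of these 9 fell in cortex (15.3%, against 7.71% of all genes), 5 rose (8.47%, against 10.4%) and the remaining 45 did not pass. Among the 10 relatives and matrix partners of the lectins (median difference -0.89), 3 fell, 1 rose and 6 were not called. Igfbp7, a secreted vessel protein that binds CD93, rose, with 11.94, 12.87, 12.93 and 11.23 in cortex, against 9.52, 9.71, 8.97 and 8.53 in lung. No cortex array of Igfbp7 came near the lung range, and it was 8.33-fold higher (3.06 log2 units, adjusted p = 0.00135). The elastic fibre glycoprotein Emilin1, of the same family as Mmrn2, lay at 7.77 ± 0.69 in cortex and 10.32 ± 0.28 in lung (-2.55 log2 units, adjusted p = 0.000957). The lectin relative Thbd (thrombomodulin), which turns thrombin towards protein C, lay at 9.81 ± 1.18 in cortex and 11.66 ± 0.44 in lung (-1.86 log2 units, adjusted p = 0.0449). The multimerin Mmrn1 lay at 9.06 ± 1.27 in cortex and 11.18 ± 0.74 in lung (-2.13 log2 units, adjusted p = 0.0470), with overlap between tissues. Beside Emilin1, 8 of 13 mesenchyme and mural markers were higher in lung and 1 in cortex, with list means of 6.42 to 7.01 in cortex and 7.53 to 9.75 in lung, and their part was not tested.

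Among 11 relatives, cytoskeletal linkers and selectins of the sialomucins (median -0.29), 1 rose and 2 fell. Podxl2, the endoglycan of the CD34 family, rose, at 9.42 ± 0.62 in cortex and 6.68 ± 0.82 in lung (2.74 log2 units, adjusted p = 0.00322). The neural marker means given above moved with Podxl2, and their part was not tested. The leukocyte sialomucin Spn lay at 4.77 ± 0.11 in cortex and 5.90 ± 0.62 in lung (-1.13 log2 units, adjusted p = 0.0258) and E-selectin (Sele) at 4.21 ± 0.12 in cortex and 4.70 ± 0.19 in lung (-0.49 log2 units, adjusted p = 0.0455), both near the low end of the scale. The linkers Ezr, Rdx, Msn, Slc9a3r1 and Slc9a3r2 were not called. Of 16 enzymes of mucin-type glycans (median -0.42), 3 fell, 0 rose and 13 were not called. The sialyltransferase St3gal1, which caps core 1 glycans, lay at 7.20 ± 0.37 in cortex and 8.86 ± 0.36 in lung (-1.66 log2 units, adjusted p = 0.00179). The branching enzyme Gcnt1 lay at 6.43 ± 0.72 in cortex and 8.33 ± 0.59 in lung (-1.90 log2 units, adjusted p = 0.0129) and Gne, the first enzyme of sialic acid synthesis, at 8.13 ± 0.45 in cortex and 9.18 ± 0.40 in lung (-1.05 log2 units, adjusted p = 0.0299). With arrays set to equal endothelial comparison means, Gne (0.062) and Sele (0.63) lay above 0 without a call.

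Among 22 genes of lumen formation and Rap1 signalling (median -0.10), 3 rose, 1 fell and 18 were not called. Egfl8, the paralogue of Egfl7, rose, with 9.76, 11.51, 11.08 and 9.55 in cortex, against 9.12, 8.84, 9.14 and 8.94 in lung (1.46 log2 units, adjusted p = 0.0448). Its arrays 22 and 19 were again the highest in cortex, and the tissues did not overlap. The polarity genes Pard6b, at 7.47 ± 0.41 in cortex and 5.71 ± 0.33 in lung (1.76 log2 units, adjusted p = 0.00145), and Prkcz, at 8.57 ± 0.47 in cortex and 7.56 ± 0.45 in lung (1.01 log2 units, adjusted p = 0.0456), also rose, on arrays where all 14 neural markers were higher, whose part was not tested. Prkcz overlapped between tissues and Pard6b did not. The integrin subunit Itgb1 fell (-1.37 log2 units, adjusted p = 0.0375). Arhgap29, the partner of Rasip1, was not called (-0.96 log2 units, adjusted p = 0.146), nor were Rap1a (-0.36 log2 units, adjusted p = 0.345), Rap1b (-0.32 log2 units, adjusted p = 0.273) and Cdc42 (-0.21 log2 units, adjusted p = 0.370). The calls of Igfbp7, Emilin1, Podxl2, St3gal1, Gcnt1 and Pard6b were unaffected by leaving out any 1 array.

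**Figure D5:**
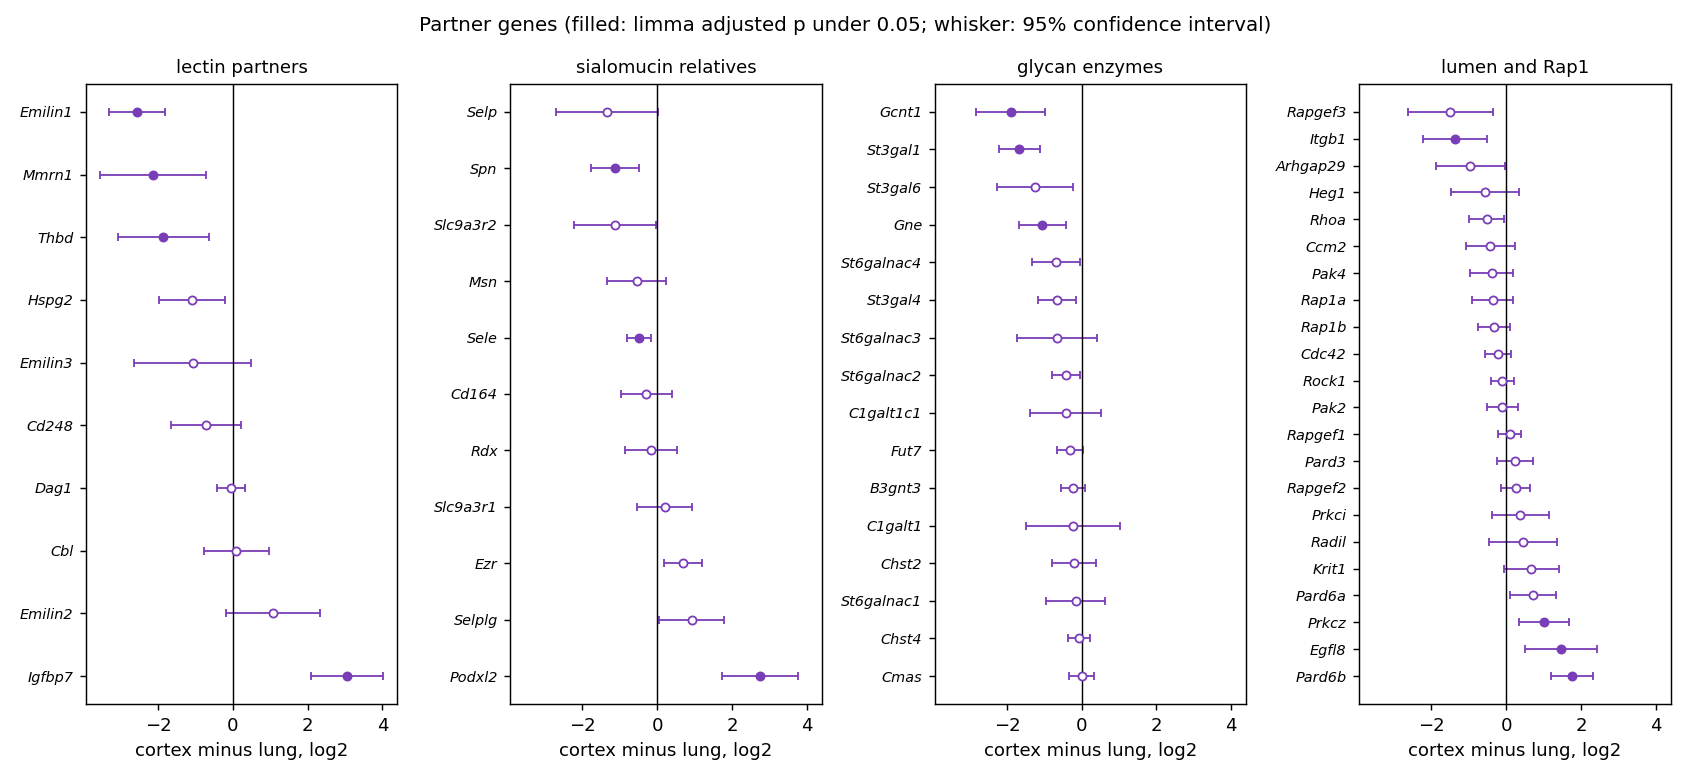
Cortex minus lung difference in log2 units with its 95% confidence interval for the 59 partner genes in 4 lists, filled where the limma adjusted p is under 0.05. Igfbp7 and Podxl2 stand farthest towards cortex and Emilin1 farthest towards lung.

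The other 8 calls among partner genes each ended without at least 1 array. For Thbd (-2.22 to -1.41 log2 units over the single arrays left out) these were cortex 72 and 18 and each lung array. For Mmrn1 (-2.64 to -1.76) they were cortex 72, 22 and 18 and lung 72, 22 and 19, and for Itgb1 (-1.59 to -1.05) cortex 72 and 18 and lung 72, 22 and 19. Gne (-1.24 to -0.83) lost its call without cortex 72 or 18 or lung 72, 19 or 18, Spn (-1.43 to -1.0) without any cortex array or lung 72, 22 or 19, and Sele (-0.53 to -0.40) without any 1 of the 8. Egfl8 (1.12 to 1.77) lost it without cortex 22 or 19 or any lung array, and Prkcz (0.83 to 1.20) without cortex 72, 19 or 18 or lung 72, 22 or 19. Taking the mean of all its probe sets also ended the call of Gne (-0.63 log2 units, adjusted p = 0.103). Median centring of the arrays ended those of Egfl8 (1.26, adjusted p = 0.0535), Prkcz (0.80, adjusted p = 0.107) and Sele (-0.70, adjusted p = 0.0572), and that of Prkcz also ended with a trended, robust prior in limma (1.01, adjusted p = 0.0547). The call of Gcnt1 ended without both arrays numbered 72 (-1.67, adjusted p = 0.0717). None of the 9 lower calls passed with arrays set to equal endothelial comparison means.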

How the data were processed

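RNA of sorted GFP-positive cells (15 to 30 ng) was linearly amplified and hybridised to Affymetrix Mouse Genome chips, per the labels' protocols. What the authors deposited are log2 values for each probe set. RMA (background correction, quantile normalization and probe summary) and affy are named in the submitters' processing notes, without versions. The range was 2.82 to 15.22 and the median of an array 6.59 to 6.72. RMA compresses differences of dim probe sets, and quantile normalization sets each value relative to its array. The 8 arrays limit the precision, and no depth applies.

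Control probe sets (64) were left out, leaving 45037, of which 34945 named 1 gene, 932 several and 9160 were unnamed here. The platform annotation gave the names, and RefSeq (GRCm38.p6) the coordinates, promoter windows and microRNA. Genes took their brightest probe set (18193 genes, no filter). The 9 genes had 21 probe sets. A few genes of the lists were not analysed here. Cortex minus lung was fitted with limma 3.58.1 in R 4.3.3 (lmFit, eBayes, tissue only, two-sided p, Benjamini-Hochberg over all genes, threshold 0.05). Values relative to other genes were tested by exact permutation of the 8 arrays (70 splits). Named genes were the 9, every called partner gene, others given as examples after their values were seen, and the 2 nearest in pattern. The genes and lists were chosen with earlier results of these data known. The study counts 4 litters, each as a replicate, so with 8 arrays the cortex and lung arrays would share litters. No label says which arrays do, or that equal numbers mark the same litter. The tissue-only fits and the permutation of 8 arrays treat the arrays as independent and take no account of shared litters. Alternatives covered the scaling, weights, prior, filter, probe sets, sample-number block and single arrays. On simulated data with 200 of 18193 genes changed between cortex and lung, 73 of 100 changed by 2 log2 units and 29 of 100 changed by 1 were called, with 3 false among 105 calls. The simulation drew independent noise for each gene, with the same SD in both tissues. In the data the 9 genes moved together over the cortex arrays and spread more there than in lung. These rates may therefore not carry over.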

Additional observations from a re-analysis of the deposited data

How the results depend on the processing

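The direction of all 9 genes held in every fit on the deposited scale, including each other probe set, and Clec14a was called in all 19 alternatives run for it (-3.45 to -2.03 log2 units). After endothelial comparison scaling, which moved the median of all genes to 1.03, the uncalled Cd93, Mmrn2, Cd34, Podxl and Ecscr had values above 0 (0.024 to 0.52). The count of the 9 genes called lower was 1 after endothelial comparison scaling, 2 without both arrays numbered 18, 1 without both numbered 72 and 2 to 6 over single arrays left out, and the count higher was 0 throughout. Partner genes called lower were 14 after median centring, 0 after endothelial comparison scaling, 5 without both arrays numbered 18, 2 without both numbered 72 and 3 to 9 over single arrays, and those called higher were 3, 11, 5, 3 and 3 to 5. Gne and Sele turned to 0.062 and 0.63 under the endothelial comparison scaling, without a call. Over all genes, calls lower in cortex (1403) were 2410 after median centring, 147 after endothelial comparison scaling, 2233 with array weights, 929 without both arrays numbered 18, 675 without both numbered 72 and 956 to 1274 over single arrays, and calls higher (1888) were 3801 after endothelial comparison scaling and 1393 to 1966 over single arrays. Without cortex 72 and 18 together, chosen after the data were seen, the 9 genes again gave 4 calls (Clec14a -2.37, Emcn -1.42, Rasip1 -1.01 and Egfl7 -0.65 log2 units), partner genes 2 lower and 5 higher, and all genes 632 lower and 1057 higher. The cause of these changes was not tested. With the sample number as a replicate block, the 9 genes gave 4 lower and 0 higher, partner genes 8 and 4, and all genes 1342 and 1801; among partner genes Egfl8 (adjusted p = 0.0600), Gne (0.0743), Spn (0.0507) and Sele (0.0955) were no longer called in that limma fit. Deviations of same-numbered arrays correlated at -0.16 to 0.33, with 2 of 4 pairs above 0.1 and 2 of 4 cortex arrays closest to their own number. With 4 arrays per tissue, these correlations cannot decide whether equal numbers mark pairs. The main fits left the number out because no label says that it pairs the samples. For the relative values, a sign-flip test over 4 pairs cannot go below 0.125. Clec14a and Emcn gave that value against the endothelial comparison mean. Their exact permutation p of 0.0286 thus rests on treating the 8 arrays as unpaired. RMA values have no detection call, so the low probe sets of Cd93 and Podxl, Spn and Sele may lie near background.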
